A study of Mus musculus with 24 samples.

Results

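A group of 8 glucocorticoid-responsive genes, Zbtb16, Fkbp5, Tsc22d3, Sgk1, Klf9, Ddit4, Errfi1 and Nr3c1, were followed across the hearts of 4 mouse genotypes. Each of the 8 genes was represented by every probe set annotated to that symbol alone, which gave 27 of the 45037 probe sets and 8 of the 18193 genes tested. Zbtb16 had 3 probe sets, Fkbp5 3, Tsc22d3 4, Sgk1 1, Klf9 7, Ddit4 1, Errfi1 2 and Nr3c1 6. The group was chosen because Zbtb16 was higher in ARG than in GLY hearts, so the Zbtb16 values in those hearts are a description with no test, and so is every ARG against GLY difference below.

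Hearts were taken from mice 90 days old, 6 biological replicates for each genotype. ARG and GLY mice carried a human beta1-adrenergic receptor transgene, beta1-Arg389 in ARG and beta1-Gly389 in GLY, which differ in the residue at 1 position of the receptor. AC5 mice carried human AC5, type 5 adenylyl cyclase, the enzyme that makes cAMP downstream of that receptor, and NTG mice were non-transgenic. All 3 transgenes were driven by the alpha-myosin heavy chain promoter, which directs them to heart muscle cells, whereas the RNA came from the heart with all its cell types. In such bulk samples fewer cells of a type and less RNA per cell cannot be told apart.

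Glucocorticoid hormones enter cells and bind the glucocorticoid receptor, encoded by Nr3c1, which leaves its chaperones, moves to the nucleus and binds DNA next to its target genes. Among the targets, Fkbp5 encodes a co-chaperone that lowers the receptor's affinity for hormone, Tsc22d3 encodes the leucine zipper protein GILZ, and Sgk1 encodes a kinase that acts on ion channels and transporters. Klf9 and Zbtb16 encode zinc finger transcription factors, Ddit4 encodes REDD1, an inhibitor of the growth kinase mTOR, and Errfi1 encodes MIG6, an inhibitor of the EGF receptor. Many of these genes also answer to other signals, cAMP and stress among them.

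The deposited value of a probe set in a heart was a ratio on a linear scale, close to 1 in NTG hearts. Since it carries no signal level, levels cannot be compared between genes, and the presence of a cell type cannot be read from it. Differences are given on the log2 scale with the SE of the fit, and "rose" and "fell" are used only where limma gave a Benjamini-Hochberg adjusted p under 0.05 over all 45037 probe sets. A single SE per probe set was shared by the 4 genotypes. Array medians lay between -0.05 and 0.09 on the log2 scale. The 3 arrays that stood apart had low array weights in limma, GLY replicate 1 (0.354), GLY replicate 3 (0.312) and ARG replicate 1 (0.478), against 0.568 to 2.023 for the other arrays. Where a call or a described difference of the 8 genes changed without these 3 arrays, the value without them is given too.

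Zbtb16, which encodes PLZF, had its highest values in ARG hearts. At probe set 1419874_x_at the ratio had a lowest, median and highest value of 2.15, 2.88 and 3.75 in ARG hearts. It was 0.779, 1.19 and 1.35 in GLY hearts, 1.17, 1.37 and 2.69 in AC5 hearts, and 0.900, 1.05 and 1.11 in NTG hearts. Every ARG heart lay above every GLY and every NTG heart, and every AC5 heart lay above every NTG heart. Over all probe sets, 0.262% had ARG hearts wholly above GLY hearts and 2.32% had ARG hearts wholly above NTG hearts.

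At 1439163_at the lowest, median and highest ratios were 1.45, 2.61 and 3.43 in ARG hearts, and 0.608, 0.874 and 1.24 in GLY hearts. In AC5 hearts they were 1.27, 1.45 and 3.02, and in NTG hearts 0.827, 0.934 and 1.08. ARG hearts again did not overlap GLY or NTG hearts, but they overlapped AC5 hearts. All GLY hearts also lay below all AC5 hearts there, as in 0.462% of all probe sets. At the third probe set, 1427638_at, the medians were 1.49 in ARG, 1.09 in GLY, 1.18 in AC5 and 1.02 in NTG hearts, and the 4 genotypes overlapped.

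The fitted ARG minus NTG difference of Zbtb16 was 1.50 ± 0.18 at 1419874_x_at (2.83-fold), 1.34 ± 0.22 at 1439163_at (2.53-fold) and 0.56 ± 0.13 at 1427638_at (1.48-fold). The GLY minus NTG differences were 0.06 ± 0.18, -0.15 ± 0.22 and 0.03 ± 0.13 at the same probe sets. ARG minus GLY came to 1.44, 1.49 and 0.54. The order of the means was ARG, AC5 and then GLY with NTG at all 3 probe sets as deposited, and GLY and NTG lay within 1 SE of each other at each. Under quantile normalization the ARG minus NTG values were 0.93, 0.96 and 0.39, and ARG and AC5 changed places at 1439163_at, where ARG minus AC5 was -0.05.

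**Figure D1:**
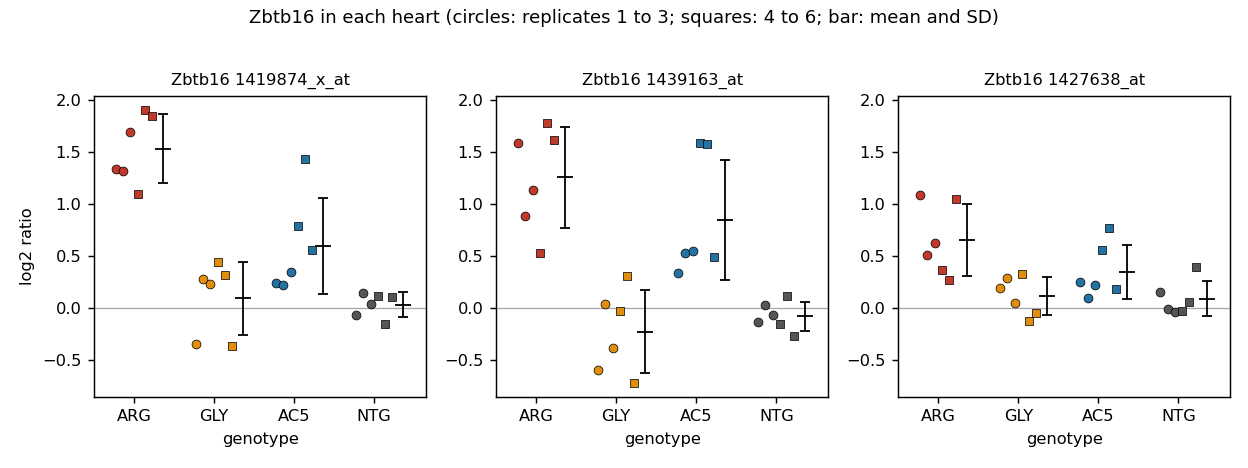
Log2 ratio of Zbtb16 in each heart at its 3 probe sets, by genotype (ARG, GLY, AC5, NTG). Circles are replicates 1 to 3, squares replicates 4 to 6, and bars the mean and SD of 6 hearts. ARG hearts lie above all GLY and NTG hearts in the first 2 panels, and AC5 replicates 4 and 5 lie far above the other AC5 hearts in the second.

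Zbtb16 was chosen for its ARG and GLY values and not for AC5 or NTG hearts, so AC5 against NTG was tested. The test is not fully separate from that choice. Its SE was shared with the ARG and GLY hearts, and the members were chosen with earlier results of these data known. No Zbtb16 probe set passed over all probe sets, although 2 of the 3 had AC5 hearts wholly above NTG hearts, against 0.486% of all probe sets in that direction. The difference at 1439163_at was 0.93 ± 0.22 (1.90-fold, 95% confidence interval 0.47 to 1.39, limma adjusted p = 0.102). It was 0.56 ± 0.18 at 1419874_x_at (adjusted p = 0.284) and 0.26 ± 0.13 at 1427638_at (adjusted p = 0.734). AC5 replicates 4 and 5, at 3.02 and 3.00, had roughly the same ratio at 1439163_at as the highest ARG hearts, while the other AC5 hearts lay between 1.27 and 1.47. Without replicate 4 or without replicate 5 the difference was 0.78. Replicates 1 to 3 alone gave 0.53, and replicates 4 to 6 alone gave 1.33. The 1439163_at difference was called under quantile normalization (1.01, adjusted p = 0.00864), with array weights (0.87, adjusted p = 0.0174) and when only AC5 and NTG arrays were fitted (0.93, adjusted p = 0.0321).

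ARG and AC5 were set side by side for Zbtb16 without a test. ARG minus AC5 was 0.94 ± 0.18 at 1419874_x_at, 0.41 ± 0.22 at 1439163_at and 0.31 ± 0.13 at 1427638_at, and the hearts of the 2 lines overlapped at each. Under quantile normalization these values were 0.38, -0.05 and 0.14, so the size at the first and the sign at the second depended on the scaling. Replicates 4 to 6 alone gave 0.09 at 1439163_at, and replicates 1 to 3 alone gave 0.73.

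The remaining 7 genes, with 24 probe sets, were tested in every comparison but ARG against GLY. In ARG hearts 0 of the 24 rose and 6 fell, where 9.67% of all probe sets were called, 4.04% higher and 5.63% lower. The 6 were 3 of the 7 Klf9 probe sets, the Ddit4 probe set and both Errfi1 probe sets. In GLY hearts 0 rose and 2 fell, both of Klf9, against 5.08% of all probe sets called, 1.55% higher and 3.53% lower. In AC5 hearts 0 of 27, Zbtb16 included, were called by limma, against 0.142% of all probe sets (0.0688% higher and 0.0733% lower), and 5 of the 27 had an unadjusted p under 0.05 (18.5%, against 7.26% of all probe sets). Between lines, 0 rose and 4 fell in ARG against AC5 hearts (3 of Klf9 and Ddit4), where 4.93% of all probe sets were called, 2.52% higher and 2.41% lower, and 0 rose and 1 fell in GLY against AC5 hearts (Klf9), where 0.693% were called, 0.255% higher and 0.437% lower. The median difference of the 24 probe sets was -0.11 in ARG, -0.19 in GLY and 0.02 in AC5 hearts, against 0.004 in ARG, 0.03 in GLY and -0.001 in AC5 over all probe sets. These comparisons share the NTG hearts, so their values are not independent of each other. Probe sets of the same gene are not independent either, so counts of probe sets called are not counts of genes.

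**Figure D2:**
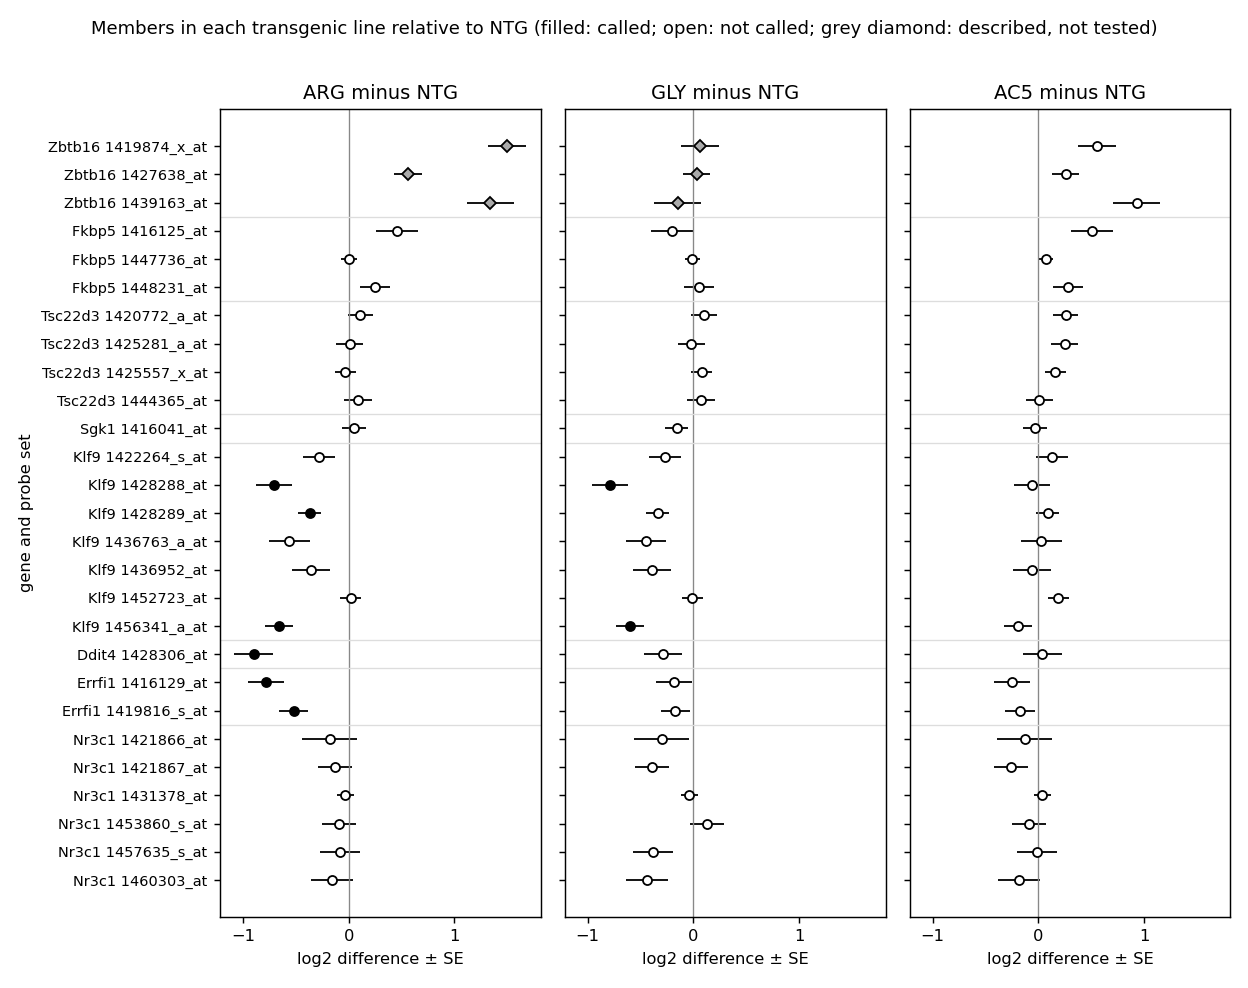
Log2 difference from NTG ± SE for each of the 27 probe sets in ARG, GLY and AC5 hearts (6 hearts per genotype). Filled points were called at an adjusted p under 0.05, open points were not called and grey diamonds were not tested. The called points, 6 in ARG and 2 in GLY, all lie below 0 and belong to Klf9, Ddit4 and Errfi1.

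Nr3c1, the receptor itself, was called at none of its 6 probe sets in any of the 5 comparisons tested. Its differences from NTG ranged over the 6 probe sets from -0.18 to -0.03 in ARG hearts, from -0.44 to 0.13 in GLY hearts and from -0.26 to 0.04 in AC5 hearts. At 1460303_at the lowest, median and highest ratios were 0.716, 0.887 and 1.06 in ARG hearts and 0.378, 0.898 and 1.26 in GLY hearts. They were 0.720, 0.874 and 1.19 in AC5 hearts and 0.943, 0.964 and 1.07 in NTG hearts. The GLY range was set by replicates 1 and 3, at 0.408 and 0.378, the 2 GLY arrays of low weight, while the other GLY hearts lay at 0.872 or above. The GLY minus NTG difference there was -0.44 ± 0.20 (limma adjusted p = 0.235). Without the 3 arrays of low weight it was 0.004 ± 0.12 (adjusted p = 0.992), and the GLY differences over the 6 probe sets then ran from -0.14 to 0.15. Replicates 1 to 3 alone, which hold both low GLY hearts, gave -0.96 (adjusted p = 0.0321), and without GLY replicate 6 it was -0.60 (adjusted p = 0.0490).

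A list of 14 genes for the receptor, its relative Nr3c2, chaperones, coregulators and steroid enzymes had 10 measured members, Nr3c1 among them. In ARG hearts 0 of 10 rose and 2 fell, with a list median of -0.12 against 0.004 over all probe sets. Of all probe sets, 4.04% were called higher and 5.63% lower in ARG hearts. Nr3c2, the mineralocorticoid receptor that also binds glucocorticoids, fell by 0.52 ± 0.12 (limma adjusted p = 0.00381), with ratios of 0.580, 0.686 and 0.961 in ARG hearts against 0.855, 1.04 and 1.21 in NTG hearts. Hsd11b1, the enzyme that regenerates active glucocorticoid inside cells, fell by 0.50 ± 0.10 (adjusted p = 0.000836). Its ARG hearts, at 0.660 to 0.903, all lay below the NTG hearts, at 0.940 to 1.32, as in 3.79% of all probe sets. None of the 10 was called by limma in GLY or in AC5 hearts, with an unadjusted p under 0.05 for 3 in GLY (30.0%, against 19.0% of all probe sets) and 1 of the 10 in AC5 (against 7.26% of all).

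Fkbp5 is among the most inducible receptor targets in many tissues. At 1416125_at the lowest, median and highest ratios were 0.762, 1.18 and 1.94 in ARG hearts, 0.646, 0.760 and 0.974 in GLY hearts, 1.06, 1.15 and 2.08 in AC5 hearts, and 0.659, 0.950 and 1.14 in NTG hearts. ARG replicates 1 and 6, at 1.93 and 1.94, and AC5 replicate 5, at 2.08, were the 3 highest hearts, and all GLY hearts lay below all AC5 hearts, as in 0.462% of all probe sets. The difference was 0.46 ± 0.20 for ARG minus NTG (limma adjusted p = 0.171), -0.20 ± 0.20 for GLY minus NTG (0.658) and 0.51 ± 0.20 for AC5 minus NTG (0.494). GLY minus AC5 came to -0.71 ± 0.20 (adjusted p = 0.0985). ARG minus GLY, with no test, was 0.65 ± 0.20. The ARG minus NTG difference was 0.60 without ARG replicate 3 (adjusted p = 0.0485) and 0.33 without the 3 arrays of low weight, ARG replicate 1 among them (adjusted p = 0.329). The other 2 Fkbp5 probe sets were not called, with ARG minus NTG differences of 0.25 ± 0.14 at 1448231_at and 0.004 ± 0.073 at 1447736_at.

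Tsc22d3 was called at none of its 4 probe sets in any comparison tested. At 1420772_a_at the lowest, median and highest ratios were 0.786, 1.12 and 1.42 in ARG hearts, 0.886, 1.08 and 1.30 in GLY hearts, 1.10, 1.18 and 1.42 in AC5 hearts, and 0.882, 1.01 and 1.20 in NTG hearts. All 4 genotypes overlapped. Over the 4 probe sets the differences from NTG ran from -0.03 to 0.11 in ARG, from -0.02 to 0.10 in GLY and from 0.01 to 0.26 in AC5 hearts. The highest of the AC5 values had a 95% confidence interval of 0.02 to 0.51 and an adjusted p of 0.620.

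Sgk1 was likewise not called. Its single probe set, 1416041_at, had ratios of 0.749, 1.08 and 1.28 in ARG hearts, 0.808, 0.887 and 0.997 in GLY hearts, 0.787, 0.966 and 1.12 in AC5 hearts, and 0.820, 1.01 and 1.16 in NTG hearts. The difference from NTG was 0.05 ± 0.11 in ARG (95% confidence interval -0.17 to 0.28), -0.16 ± 0.11 in GLY and -0.03 ± 0.11 in AC5 hearts. Among the genes followed here with a promoter window, Sgk1 alone held an idealised palindrome of the glucocorticoid receptor, AGAACA followed by any 3 bases and then TGTTCT, searched on both strands in the 250 bases before each start. It stood in 1 of the 6 Sgk1 windows and in 3 of all 32851 windows (0.00913%), and each occurrence also holds the single arm AGAACA. That window is shown because it carries the receptor's textbook motif beside a gene whose ratio was not called in any line. It lies at chr10:21993640-21993889 on the plus strand (RefSeq, GRCm38.p6), with the palindrome in capitals 189 to 175 bases before the start.
Sgk1: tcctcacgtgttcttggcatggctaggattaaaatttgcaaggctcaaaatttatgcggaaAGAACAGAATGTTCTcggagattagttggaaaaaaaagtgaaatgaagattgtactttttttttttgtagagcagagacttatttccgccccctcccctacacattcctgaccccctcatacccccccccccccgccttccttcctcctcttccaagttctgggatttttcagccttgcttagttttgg

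The single arm AGAACA, or TGTTCT on the other strand, is common: 5284 of the 32851 windows held it (16.1%). In the windows of Fkbp5, Klf9, Ddit4 and Errfi1 neither the palindrome nor the single arm was found, which says only that these letters are not in these 250 bases.

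Klf9 fell in both receptor lines. At 1428288_at the lowest, median and highest ratios were 0.522, 0.603 and 0.669 in ARG hearts, 0.316, 0.673 and 0.778 in GLY hearts, 0.791, 0.918 and 1.23 in AC5 hearts, and 0.872, 0.984 and 1.11 in NTG hearts. All ARG and all GLY hearts lay below all AC5 and all NTG hearts. The difference from NTG was -0.71 ± 0.17 in ARG (1.64-fold lower, limma adjusted p = 0.00508), -0.79 ± 0.17 in GLY (1.73-fold lower, adjusted p = 0.00530) and -0.06 ± 0.17 in AC5 (adjusted p = 0.981). Against AC5 hearts the difference was -0.64 for ARG (adjusted p = 0.0192) and -0.73 for GLY (adjusted p = 0.0341).

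At 1456341_a_at the ratios were 0.551, 0.618 and 0.726 in ARG hearts, 0.444, 0.694 and 0.840 in GLY hearts, 0.695, 0.870 and 0.996 in AC5 hearts, and 0.827, 0.984 and 1.23 in NTG hearts. Only the ARG hearts were free of overlap with NTG hearts. Klf9 at this probe set fell by 0.66 ± 0.13 in ARG (adjusted p = 0.00108) and by 0.60 ± 0.13 in GLY hearts (adjusted p = 0.00714). At 1428289_at it fell by 0.37 ± 0.11 in ARG hearts (adjusted p = 0.0223), and the GLY difference of -0.34 ± 0.11 was not called (adjusted p = 0.0611). Both probe sets were also called lower in ARG than in AC5 hearts, by -0.46 each (adjusted p = 0.0352 at 1456341_a_at and 0.00747 at 1428289_at). The first of these calls was lost in 8 of the 12 fits that left out 1 heart (adjusted p between 0.0615 and 0.0873) and under quantile normalization (-0.34, adjusted p = 0.145). The ARG against AC5 call at 1428288_at was lost without AC5 replicate 4 (adjusted p = 0.0611) or ARG replicate 4 (0.0535). The ARG against NTG call at 1428289_at was lost without NTG replicate 1 or 2 or ARG replicate 2 or 3 (adjusted p between 0.0531 and 0.0638), and the GLY against NTG call at 1456341_a_at under quantile normalization (-0.40, adjusted p = 0.0802). The groups without overlap made up 2 of the 24 probe sets for ARG below NTG, against 3.79% of all, and 1 of 24 for GLY below NTG, against 1.61% of all. For ARG below AC5 they made up 2 of the 24, against 1.57% of all, and for GLY below AC5 also 2 of the 24, against 0.462% of all. The last 2 were Klf9 at 1428288_at and Fkbp5 at 1416125_at.

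The 4 other Klf9 probe sets were not called. At 1436763_a_at the differences were -0.56 ± 0.19 in ARG (adjusted p = 0.0623) and -0.45 ± 0.19 in GLY (0.181), at 1436952_at -0.36 and -0.39, at 1422264_s_at -0.28 and -0.27, and at 1452723_at 0.02 and -0.01. The last stood near 0 in both lines, so the probe sets of Klf9 disagreed. The ARG difference at 1436763_a_at was called with the set of replicates as a term (adjusted p = 0.00889), with array weights (0.0402), without the 3 arrays of low weight (0.0499) and when only ARG and NTG arrays were fitted (0.0396). With the replicate number as a block, 1436763_a_at was called in ARG (adjusted p = 0.00493) and in GLY hearts (0.0376). ARG and GLY, described without a test, differed by -0.11 to 0.08 over the 7 probe sets with all arrays. Without the 3 arrays of low weight ARG minus GLY was -0.30 at 1428288_at, -0.24 at 1428289_at and -0.31 at 1456341_a_at. At 1428288_at it was 0.46 in replicates 1 to 3 alone and -0.30 in replicates 4 to 6 alone, so its sign depended on the hearts used.

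Klf9 in GLY hearts rested partly on replicates 1 and 3, whose ratios at 1428288_at were 0.384 and 0.316, against 0.673 to 0.778 in the other 4. Without those 2 and ARG replicate 1 the GLY minus NTG difference at 1428288_at was -0.44 ± 0.11 (limma adjusted p = 0.0207), and at 1456341_a_at it was -0.38 with an adjusted p of 0.0645. In the same fit the ARG minus NTG values were -0.74 ± 0.10 and -0.69 ± 0.10. The GLY minus NTG difference at 1428288_at was -1.13 in replicates 1 to 3 alone and -0.45 in replicates 4 to 6 alone, whereas the ARG values were -0.68 and -0.74. The GLY value in replicates 4 to 6 (limma adjusted p = 0.297) and the ARG value in replicates 1 to 3 (0.168) were not called. At 1428289_at the ARG minus NTG difference was called in neither set alone (adjusted p = 0.225 and 0.205). The GLY against AC5 call at 1428288_at was lost in 6 of the 12 fits that left out 1 heart and without the 3 arrays of low weight (-0.38, adjusted p = 0.122).

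Ddit4 fell in ARG hearts. The ratios at 1428306_at were 0.621, 0.264, 0.411, 0.520, 0.659 and 0.902 in ARG replicates 1 to 6. Their lowest, median and highest values were 0.264, 0.571 and 0.902, against 0.726, 0.787 and 0.925 in GLY hearts, 0.872, 0.980 and 1.23 in AC5 hearts, and 0.797, 0.959 and 1.25 in NTG hearts. In ARG, 5 of the 6 hearts lay below all GLY and all NTG hearts, and replicate 6 lay among them. The difference was -0.90 ± 0.18 for ARG minus NTG (1.86-fold lower, limma adjusted p = 0.00142) and -0.94 ± 0.18 for ARG minus AC5 (adjusted p = 0.00194). It was -0.29 ± 0.18 for GLY minus NTG (adjusted p = 0.422) and 0.04 ± 0.18 for AC5 minus NTG (adjusted p = 0.990). ARG minus GLY, described only, was -0.61.

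Ddit4 differed between the 2 sets of replicates. In replicates 1 to 3 the ARG minus NTG difference was -1.25, and in replicates 4 to 6 it was -0.54, where the adjusted p was 0.100. ARG minus GLY was -1.03 in the first set and -0.18 in the second.

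Errfi1 also fell in ARG hearts, at both of its probe sets. At 1416129_at the lowest, median and highest ratios were 0.399, 0.578 and 0.862 in ARG hearts, 0.765, 0.897 and 1.07 in GLY hearts, 0.539, 0.926 and 1.03 in AC5 hearts, and 0.818, 0.987 and 1.32 in NTG hearts. The ARG hearts overlapped each of the other genotypes. The difference from NTG was -0.78 ± 0.17 in ARG (1.72-fold lower, limma adjusted p = 0.00225), -0.18 ± 0.17 in GLY (0.633) and -0.25 ± 0.17 in AC5 hearts (0.847). At 1419816_s_at it was -0.52 ± 0.14 in ARG (adjusted p = 0.0118), -0.17 ± 0.14 in GLY and -0.17 ± 0.14 in AC5 hearts. Replicates 4 to 6 alone gave ARG minus NTG values of -0.57 at 1416129_at (adjusted p = 0.202) and -0.55 at 1419816_s_at (0.136), neither called. Replicates 1 to 3 alone gave -0.50 at 1419816_s_at, also not called (adjusted p = 0.121). ARG minus AC5 was not called at either probe set, at -0.53 ± 0.17 (adjusted p = 0.0632) and -0.35 ± 0.14 (0.165). The ARG minus AC5 value at 1416129_at was called with array weights (-0.56, adjusted p = 0.0379) and without the 3 arrays of low weight (-0.62, 0.0237). It was also called without ARG replicate 1 (-0.62, adjusted p = 0.0281), without ARG replicate 6 (-0.65, 0.0183) and without AC5 replicate 5, the lowest AC5 heart (-0.67, 0.0105). ARG minus GLY was -0.60 and -0.35, with no test.

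**Figure D3:**
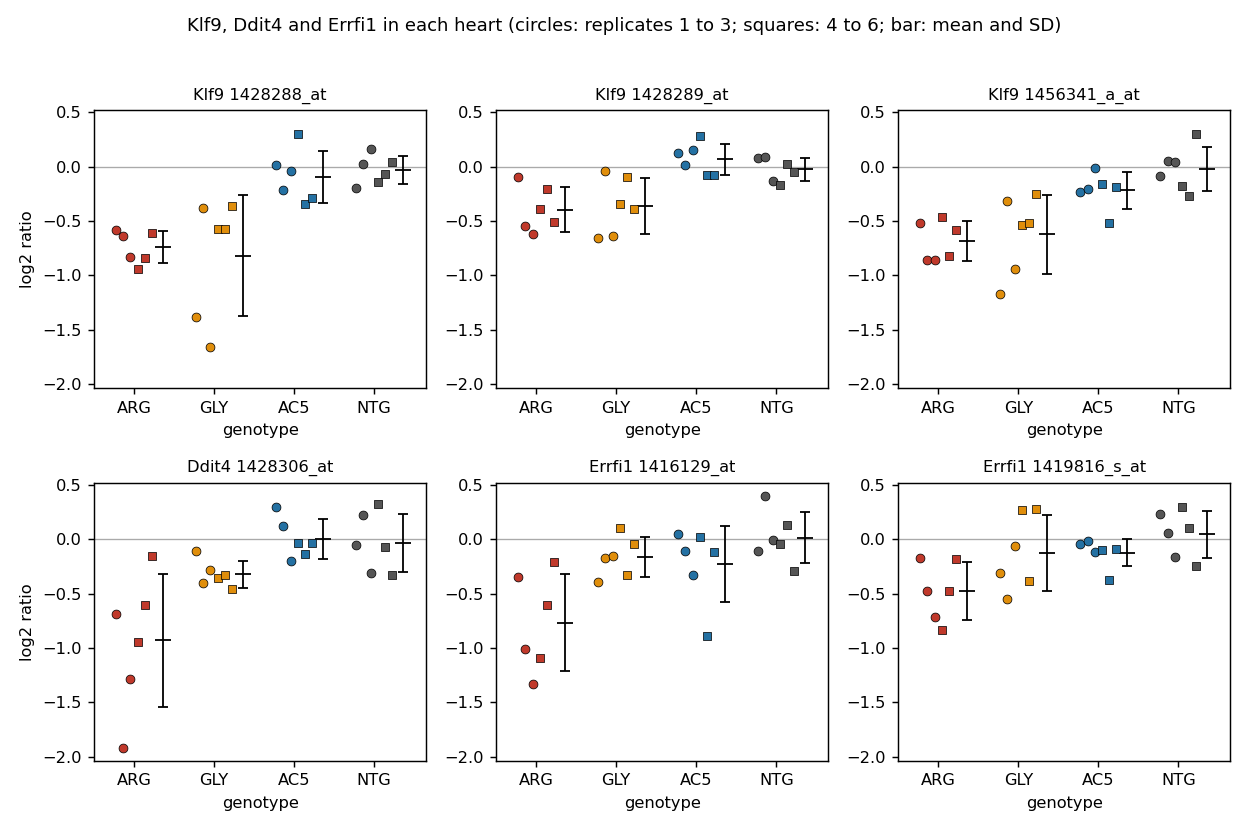
Log2 ratio in each heart for the 6 probe sets called in ARG hearts, 3 of Klf9, 1 of Ddit4 and 2 of Errfi1. Circles are replicates 1 to 3, squares replicates 4 to 6, and bars the mean and SD of 6 hearts. ARG and GLY hearts are both low for Klf9, with GLY replicates 1 and 3 lowest at 1428288_at, and ARG hearts are lowest on average for Ddit4 and Errfi1.

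The promoters of the 3 genes that fell in ARG hearts are printed side by side, each as the 250 bases before the RefSeq start on GRCm38.p6. The Klf9 window lies at chr19:23140976-23141225 on the plus strand, the Ddit4 window at chr10:59951771-59952020 on the minus strand, and the Errfi1 window at chr4:150854820-150855069 on the plus strand. Capitals in the Errfi1 window mark TGACGTCA, the cAMP response element bound by CREB, a palindrome that reads the same on both strands and does not overlap the receptor motif. It stands 51 to 44 bases before the start, and 508 of the 32851 windows held it (1.55%). The other Errfi1 window and the windows of Klf9 and Ddit4 did not, and no binding was measured here.
Klf9: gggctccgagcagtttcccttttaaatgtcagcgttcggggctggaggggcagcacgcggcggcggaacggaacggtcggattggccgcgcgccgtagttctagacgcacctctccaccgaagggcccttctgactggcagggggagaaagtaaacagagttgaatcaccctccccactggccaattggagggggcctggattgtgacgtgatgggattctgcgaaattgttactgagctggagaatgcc
Ddit4: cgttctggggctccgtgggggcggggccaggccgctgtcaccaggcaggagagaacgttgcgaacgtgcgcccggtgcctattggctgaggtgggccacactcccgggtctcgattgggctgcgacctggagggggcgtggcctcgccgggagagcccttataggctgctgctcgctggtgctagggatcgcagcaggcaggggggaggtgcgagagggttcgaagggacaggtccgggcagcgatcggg
Errfi1: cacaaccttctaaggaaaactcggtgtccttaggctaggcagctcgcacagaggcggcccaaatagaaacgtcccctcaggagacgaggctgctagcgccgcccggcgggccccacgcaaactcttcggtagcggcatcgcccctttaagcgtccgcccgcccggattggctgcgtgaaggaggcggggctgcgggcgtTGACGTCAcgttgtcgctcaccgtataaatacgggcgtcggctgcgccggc

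Whether Zbtb16 moved with the other 7 genes from heart to heart was asked of the deviations of each heart from its genotype mean, over 24 hearts and 7 relations. Each gene was represented by 1 probe set, picked by probe set suffix, which for Zbtb16 was 1427638_at. None of the 7 relations passed a two-sided permutation test within genotypes after adjustment, and 1 had an unadjusted p under 0.05. With Fkbp5 the correlation was highest, with Pearson r = 0.60 (permutation p = 0.0168, adjusted p = 0.117) and Spearman rho = 0.40 (p = 0.0933, adjusted p = 0.653). Without the 2 hearts farthest from the Zbtb16 median, ARG replicate 1 and AC5 replicate 5, r was 0.40. Replicates 1 to 3 alone gave 0.63 and replicates 4 to 6 alone 0.69. By genotype, r with Fkbp5 was 0.67 over ARG, -0.57 over GLY, 0.95 over AC5 and 0.55 over NTG hearts, 6 hearts each. None of these passed the permutation test after adjustment (adjusted p = 0.382, 0.976, 0.165 and 0.318 in that order). Over AC5 hearts rho was 0.54, below the r of 0.95. The other 6 genes had r between -0.02 and 0.30 with these probe sets. Tsc22d3, at -0.01 here, had r = 0.39 with Zbtb16 at 1439163_at (permutation p = 0.0402, adjusted p = 0.219) and 0.42 with the mean of all probe sets of each gene (adjusted p = 0.229), both looked at after the first values were seen. For Fkbp5 the same choices gave r = 0.45 (adjusted p = 0.219) and 0.51 (adjusted p = 0.229). Zbtb16 at 1427638_at itself had r = 0.40 with 1419874_x_at and 0.46 with 1439163_at, so these values depend on the probe set used.

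**Figure D4:**
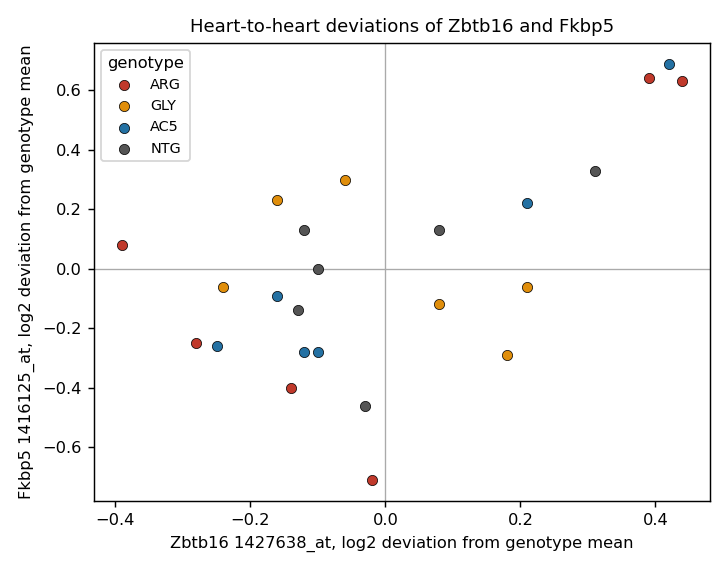
Deviation of each heart from its genotype mean (log2) for Zbtb16 at 1427638_at on the x axis and Fkbp5 at 1416125_at on the y axis, coloured by genotype. ARG replicates 1 and 6 and AC5 replicate 5 lie together at the top right. Over the GLY hearts alone r was -0.57 (permutation adjusted p = 0.976).

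All 28 pairs of the 8 genes were then compared in the same way, a choice made after the first 7 had been seen. With 1 probe set per gene none of the 28 had an adjusted p under 0.05. With the mean of all probe sets of each gene, Tsc22d3 and Ddit4 gave r = 0.83 (permutation p adjusted over 28 pairs = 0.00308) and rho = 0.75 (adjusted p = 0.00840). Leaving out the 2 farthest hearts gave r = 0.66, and the sets of replicates gave 0.91 (1 to 3) and 0.94 (4 to 6). Klf9 and Nr3c1 gave r = 0.79 (adjusted p = 0.00756) and rho = 0.72 (adjusted p = 0.0123), with 0.65 without the 2 farthest hearts, 0.57 and 0.81 within the sets and 0.70 without the 3 arrays of low weight. With 1 probe set per gene the same pairs had r = 0.56 (adjusted p = 0.154) and r = 0.61 (adjusted p = 0.188), and without the 3 arrays of low weight these were 0.54 and 0.17. With the mean of all probe sets, Tsc22d3 with Errfi1 and Sgk1 with Errfi1 passed the permutation test by rho alone. Their rho was 0.65 and 0.60 (adjusted p = 0.0431 each), and r was 0.61 in both (adjusted p = 0.0864 and 0.0555). All genes of a heart share 1 array, so these values describe shared variation of RNA and array together.

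The genes most like Zbtb16 were ranked by the Pearson r of log2 values over all 24 hearts with 1427638_at, as a description. The highest were Slc20a1 (0.711), Siah2 (0.702), Rab30 (0.699), Lyve1 (0.691) and Ralgps2 (0.689), and the lowest were Cxxc5 (-0.808), Plxdc1 (-0.801) and Vegfc (-0.792). With genotype means removed the highest were Prss41 (0.700), Cyp2j11 (0.696), Fhl1 (0.689), Bmp1 (0.689) and Olfr288 (0.685). With 1439163_at, which differed more between genotypes, the highest were Noct (0.779), Fam107a (0.755), P4ha1 (0.748), Hspb1 (0.734) and Sptlc2 (0.731). The lowest were Plxdc1 (-0.828), Jun (-0.824) and Septin4 (-0.786), so of the 8 names in each ranking Plxdc1 alone was shared.

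The wider set of genes known to be induced by glucocorticoids did not move 1 way. Of 29 such genes, members left out, 4 rose and 5 fell in ARG hearts, with a median of -0.03 against 0.004 over all probe sets. The share of all probe sets called in ARG hearts was 4.04% higher and 5.63% lower. Mt2, a metallothionein, rose by 1.84 ± 0.25 (limma adjusted p = 1.46e-05), with ratios of 2.19, 3.46 and 5.88 in ARG hearts against 0.813, 0.971 and 1.22 in NTG hearts. Cdkn1a (1.03 ± 0.18), Rgs2 (0.89 ± 0.15) and Lcn2 (0.58 ± 0.17) rose as well. Per1, a clock gene with a receptor site, fell by 0.84 ± 0.17 (adjusted p = 0.00179), with 0.311, 0.589 and 0.808 in ARG hearts against 0.796, 1.02 and 1.27 in NTG hearts. Ptgds (-0.70 ± 0.17), Sult1a1 (-0.62 ± 0.12), Sesn1 (-0.40 ± 0.13) and Trim63 (-0.38 ± 0.10) were the others that fell. In GLY hearts 2 rose and 2 fell, where 1.55% of all probe sets were called higher and 3.53% lower. Mt2 rose by 0.98 ± 0.25 (adjusted p = 0.0213) and Rgs2 by 0.74 ± 0.15, while Sult1a1 fell by 0.50 ± 0.12 (adjusted p = 0.0133) and Tgm2 by 0.46 ± 0.13. Calls of list genes in GLY hearts, here and in the lists below, depended on the processing. Over all lists together 3 genes were called in GLY hearts under quantile normalization, and 0 in replicates 4 to 6 alone. In AC5 hearts limma called 0 of 29, and 7 had an unadjusted p under 0.05 (24.1%, against 7.26% of all probe sets), 4 higher and 3 lower.

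Relatives of the members (Tsc22d1, Sgk3, Klf13, Ddit4l and others) were called in 0 of 13 cases in ARG hearts, with an unadjusted p under 0.05 for 4 (30.8%, against 20.2% of all probe sets), and in 1 of 13 in GLY hearts, where Tsc22d1 fell by 0.46 ± 0.11 (limma adjusted p = 0.0143). Of 10 pathway partners, such as Egfr for Errfi1 and Mtor for Ddit4, Erbb3, a receptor of the EGF receptor family, fell by 0.35 ± 0.11 in ARG hearts (adjusted p = 0.0372), and none was called in GLY hearts. Of 14 circadian genes, 1 rose and 5 fell in ARG hearts and 1 rose and 2 fell in GLY hearts. Over all probe sets 4.04% were called higher and 5.63% lower in ARG hearts, and 1.55% and 3.53% in GLY hearts. Nfil3, a repressor of clock output, rose by 1.49 ± 0.15 in ARG hearts (adjusted p = 2.08e-07) and by 0.62 ± 0.15 in GLY hearts (0.0162). Dbp, an activator of clock output, fell by 0.84 ± 0.16 in ARG hearts (0.000948), and Nr1d2, a clock repressor, fell by 0.60 ± 0.17 in GLY hearts (0.0351). Neither the labels nor the files used here state the hour of collection.

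**Figure D5:**
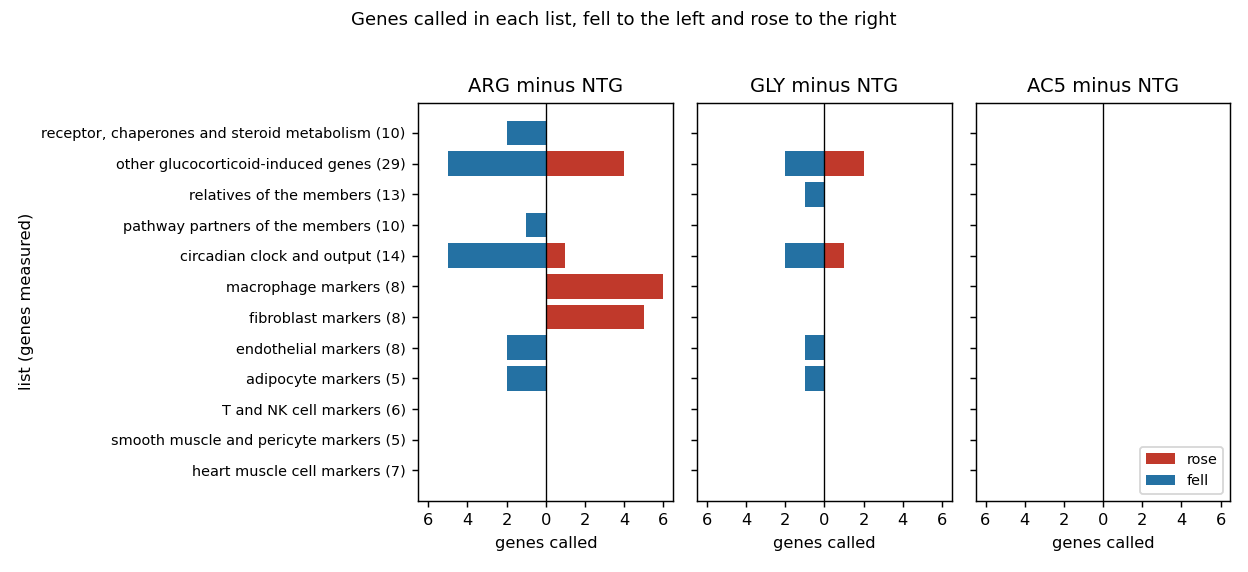
Number of genes called in each of 12 lists for ARG, GLY and AC5 hearts against NTG hearts, with genes that fell to the left of 0 and genes that rose to the right. The number of genes measured is in brackets after each list. The 29 other glucocorticoid-induced genes split 4 to 5 in ARG hearts, macrophage and fibroblast markers were called in ARG hearts and not in GLY or AC5 hearts, and no gene was called in AC5 hearts.

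Markers of other cell types moved with the ARG genotype beside the falls of Klf9, Ddit4 and Errfi1. Some also moved with GLY beside the fall of Klf9, and their part in those falls was not tested. Of 8 macrophage markers 6 rose and none fell in ARG hearts, and the mean log2 ratio of the list lay between 0.23 and 1.09 in ARG, -0.39 and 0.62 in GLY, -0.23 and 0.17 in AC5, and -0.17 and 0.14 in NTG hearts. Of 8 fibroblast markers 5 rose and none fell in ARG hearts, with list means between 0.07 and 0.95 in ARG, -0.53 and 0.53 in GLY, -0.64 and -0.24 in AC5, and -0.24 and 0.02 in NTG hearts. Cd68 of macrophages rose by 0.96 ± 0.19 and Postn of activated fibroblasts by 1.08 ± 0.24. Of 8 endothelial markers 2 fell in ARG hearts and 1 fell in GLY hearts, led in each by Egfl7 (-0.49 ± 0.12 in ARG and -0.45 ± 0.12 in GLY). The endothelial list had a median of -0.25 in ARG (highest 0.31) and -0.14 in GLY hearts (highest 0.37). Of 5 adipocyte markers 2 fell in ARG hearts and 1 in GLY hearts, with Fabp4 at -1.73 ± 0.29 in ARG and -1.72 ± 0.29 in GLY hearts. Fabp4 was the lowest of its list in both, while the list median was -0.09 in ARG and -0.02 in GLY hearts. None of 6 T and NK cell, 5 smooth muscle and pericyte and 7 heart muscle cell markers was called in ARG or GLY hearts. Beside these marker counts, 4.04% of all probe sets were called higher and 5.63% lower in ARG hearts. In GLY hearts the shares were 1.55% and 3.53%.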

How the data were processed

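Heart RNA of 4 genotypes, 6 hearts each, was hybridised to Affymetrix arrays, and p-values measure the spread between these hearts. The authors deposited each array as a linear ratio, near 1 in NTG hearts. Per the submitters' processing notes RMA was used, with its version not given, and the division by a control level was read from the values. The plan had assumed log2 values, so log2 of the ratio was taken here. No filter on brightness was possible. The number of arrays and their unequal weights (0.312 to 2.023) limit the precision.

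Of 45101 probe sets, 64 controls were left out. Symbols came from the platform annotation (34945 probe sets with 1 symbol, 932 with several, 9160 with none). The log2 values of the 24 hearts entered 1 limma fit (version 3.58.1, R 4.3.3) with a mean per genotype, and p-values were adjusted by Benjamini-Hochberg over 45037 probe sets. The fit was tested on simulated data.

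The members, the 12 lists (123 of 131 genes measured) and the tests were chosen with earlier results of these data known. Lists used 1 probe set per gene by suffix (_at, _a_at, _s_at, _x_at, then lowest number). By rule the text named every member, the called gene with the largest rise and fall in each list, and the 5 highest and 3 lowest correlates of Zbtb16. Other called list genes were named after their values were seen. Permutation tests used 100000 draws within genotypes (scipy 1.17.1, Python 3.11.15). Promoters were RefSeq windows of GRCm38.p6, matched by symbol for 6 of the 8 genes. Sets of replicates (1 to 3 and 4 to 6) are not named in the labels and were taken from an earlier look at these data. Alternatives were quantile normalization, a term for the set of replicates, each set alone, the replicate number as a block, array weights, 3 arrays left out, only the 2 genotypes compared, probe sets with 1 symbol, and each heart left out.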

Additional observations from a re-analysis of the deposited data

Results flagged for a closer look

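Of 108 groups of 6 hearts (27 probe sets in 4 genotypes), 2 held a heart far from the rest, where chance gives about 1 in 20. At Tsc22d3 1425557_x_at the lowest GLY heart, replicate 6, had a ratio of 0.911 while the other GLY hearts lay between 1.07 and 1.16, and the gap made up 0.661 of the group's range on the log2 scale. At Errfi1 1419816_s_at the lowest AC5 heart, replicate 5, had a ratio of 0.775 while the other AC5 hearts lay between 0.922 and 0.985, and the gap made up 0.726 of the range. Dixon's critical value for 6 values is 0.625.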

How the results depend on the processing

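No called value changed its sign in any alternative. Of 1944 values with 1 heart left out, 1909 did not change in call, 20 lost the call and 15 gained one. Of 1458 values under the other alternatives, 1395 stayed, 23 lost the call, 22 gained one and 18 untested values moved by over the spread between hearts. Counted among the 1909 and the 1395 are 88 and 71 values that were called in neither fit and changed sign. The counts of called member probe sets with 1 heart left out ran from 5 to 7 for ARG against NTG (6 with all hearts), from 2 to 3 for GLY against NTG (2), 0 throughout for AC5 against NTG (0), from 2 to 6 for ARG against AC5 (4) and from 0 to 2 for GLY against AC5 (1). The lowest ARG against AC5 count, 2, came without AC5 replicate 4. GLY against AC5 came to 0 without AC5 replicate 1, 2, 3 or 4 or GLY replicate 1 or 3, and to 2 without GLY replicate 2 or 5. Quantile normalization gave 1 for GLY against NTG, 1 for AC5 against NTG (Zbtb16) and 0 for GLY against AC5, and the list genes called were 3 for GLY against NTG (10 otherwise) and 2 for AC5 against NTG (0 otherwise). Array weights gave 1 for AC5 against NTG, and fitting only the 2 genotypes gave 1 for AC5 against NTG and 0 for GLY against AC5. Without GLY replicates 1 and 3 and ARG replicate 1, GLY against NTG had 1 and GLY against AC5 had 0. With the set of replicates as a term, and with probe sets of 1 symbol only, GLY against AC5 had 2. Replicates 1 to 3 alone, with fewer hearts, gave 4 for GLY against NTG, 2 for ARG against AC5 and 12 list genes for ARG against NTG (33 otherwise). Replicates 4 to 6 alone gave 2 for ARG against NTG, 0 for GLY against NTG, 1 for ARG against AC5, 0 for GLY against AC5 and 0 list genes for GLY against NTG. Other causes of these shifts were not tested. Same-numbered hearts of different genotypes deviated together with r between -0.289 and 0.492. Between ARG and GLY hearts all same-number values lay above 0 (0.053 to 0.492), against a median of -0.072 for hearts of different numbers. In every other pair of genotypes they lay on both sides of 0, so the numbers do not pair the hearts of all 4 genotypes. With the replicate number as a block the counts were 7 for ARG against NTG, 3 for GLY against NTG, 0 for AC5 against NTG, 5 for ARG against AC5 and 1 for GLY against AC5, with Klf9 1436763_a_at gained in the first 2 and in ARG against AC5 (adjusted p = 0.00493, 0.0376 and 0.00607). The ratios hold no signal over background, so which probe sets were dim is unknown.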
